A study of Mus musculus with 4 samples.

Results

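The caveolins and the Popeye domain genes were followed in 4 single-cell libraries of the mouse heart as 6 genes chosen by their symbols: Cav1, Cav2, Cav3, Bves, Popdc2 and Popdc3. They are 6 of the 27998 genes in the count tables, of which 20485 had a count in a kept cell. The libraries came from regions microdissected from wild-type CD1 hearts at embryonic day 16.5, with no transgene, deletion or treatment: 1 of the sinoatrial node (SAN) region (Zone I), 1 of the atrioventricular node (AVN) and His bundle region (Zone II), and 1 each of the bundle branch and Purkinje fiber (BB/PF) region of the left (LV) and right (RV) ventricle (Zone III). The study used them to look for genes of the cell surface enriched in the conduction system. Each count is a unique molecular identifier (UMI) read near the 3′ end of a transcript. Cells with at least 500 genes were kept, 5934, 5645, 5100 and 4356 in the 4 libraries and 21035 of 22805 barcodes in all, with median depths of 8480 to 9272 UMIs. Values of the 4 libraries are given below in this order. Since each region gave 1 library, regions were not tested against each other, and how many hearts went into a library is not given in the sources used here.

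Caveolins are the integral membrane proteins of caveolae, the flask-shaped pits of the plasma membrane that buffer membrane tension and gather signaling proteins. Caveolin 1 builds caveolae in most cells, caveolin 2 joins it in mixed oligomers, and caveolin 3 is the form of striated muscle, where caveolae hold ion channels. The Popeye domain genes Bves (also called Popdc1), Popdc2 and Popdc3 encode membrane proteins of striated muscle that bind cyclic AMP. Bves protein binds caveolin 3, and mice lacking Bves or Popdc2 are known for a slowed sinus rhythm under stress.

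The genes lie in 4 places of the GRCm38 (mm10) genome. Cav2 (chr6:17281185-17289115) and Cav1 (chr6:17306335-17341452) are neighbors on the plus strand, 17219 bases apart with no protein-coding gene between. Popdc3 (chr10:45178098-45318452) and Bves (chr10:45335772-45372479) are another pair, 17319 bases apart on the plus strand. Cav3 (chr6:112459505-112472872) and Popdc2 (chr16:38362209-38378216) stand apart from the others. The gene model Gm21987 overlaps Popdc2 on the same strand and had 222 UMIs in kept cells beside 30077 of Popdc2. How reads shared by both were counted is not given, so that Popdc2 counts carry that uncertainty. The antisense models Gm15581 over Cav1 and Cav2 (4 UMIs) and Gm15934 over Popdc3 (926 UMIs) have rows of their own.

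The promoters of Cav1, Cav2, Cav3 and Popdc2 are shown because Cav1 and Cav2 followed each other across cell classes, as did Cav3 and Popdc2. Each is the 250 bases before the transcription start in RefSeq (GRCm38.p6), written 5′ to 3′. Capitals mark matches on either strand to 4 motifs: CATTCC (MCAT, bound by TEAD factors), AGATAA (bound by GATA factors), GGGCGG (GC box) and TATAAA (the TATA box). RefSeq promoters were found for 4 of the 6 genes, with Bves and Popdc3 not among them. The first of 2 Cav1 starts is shown.

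Cav1, chr6:17306085-17306334, plus strand: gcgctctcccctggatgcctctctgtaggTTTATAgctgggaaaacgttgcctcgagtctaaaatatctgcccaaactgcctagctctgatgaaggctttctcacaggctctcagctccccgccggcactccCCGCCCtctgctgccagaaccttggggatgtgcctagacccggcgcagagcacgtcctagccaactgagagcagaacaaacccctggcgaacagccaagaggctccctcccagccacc
Cav2, chr6:17280935-17281184, plus strand: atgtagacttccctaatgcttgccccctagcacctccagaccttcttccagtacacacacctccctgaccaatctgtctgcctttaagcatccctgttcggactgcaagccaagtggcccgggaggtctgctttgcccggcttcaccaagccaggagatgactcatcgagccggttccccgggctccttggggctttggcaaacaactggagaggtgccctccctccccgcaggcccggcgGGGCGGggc
Cav3, chr6:112459255-112459504, plus strand: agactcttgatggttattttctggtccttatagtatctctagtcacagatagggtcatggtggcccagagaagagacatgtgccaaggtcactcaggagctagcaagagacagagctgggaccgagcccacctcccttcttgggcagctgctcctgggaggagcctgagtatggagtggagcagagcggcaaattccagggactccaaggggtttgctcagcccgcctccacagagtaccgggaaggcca
Popdc2, chr16:38361940-38362189, plus strand: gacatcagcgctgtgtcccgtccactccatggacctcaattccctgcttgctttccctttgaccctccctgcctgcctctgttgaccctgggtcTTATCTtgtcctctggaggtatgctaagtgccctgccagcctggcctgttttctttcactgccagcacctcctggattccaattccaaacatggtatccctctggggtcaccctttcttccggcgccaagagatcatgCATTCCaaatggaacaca

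The Cav1 window held 1 GC box and 1 TATA box and the Cav2 window 1 GC box. Of all 32851 promoters of this length, 32.7% held a GC box and 12.4% a TATA box. The Popdc2 window held 1 MCAT and 1 GATA match, found in 12.6% and 9.99% of promoters, and the Cav3 window held none of the 4 motifs. A match is a run of letters and was not tested for binding.

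Cells were clustered on genes other than the members and the gene lists used below, and clusters were named by markers. The 142 SAN-like cells passed 8 of 8 markers, the 157 AVN/His-like cells 7 of 9 and the 124 PF-like cells (67 LV and 57 RV) 8 of 9. The AVN/His-like cluster was led by the atrial genes Myl7, Nppa and Sln, and atrial myocytes of Zone II cannot be told apart from it. Working myocyte-like cells (2817, 2370, 4088 and 2366) were atrial in Zone I and ventricular in the other libraries. A further 193 myocytes of Zone II, led by the potassium channel subunit Kcne1, passed 6 of the 9 AVN/His markers. They failed a further naming rule, given with the processing, and were kept apart as intermediate. The other classes were endothelial-like (702, 456, 267 and 469), mural-like (375, 301, 124 and 240), fibroblast-like (1158, 1357, 308 and 536) and macrophage-like (202, 85, 22 and 90) cells, with epicardial-like cells in the SAN and AVN/His libraries (181 and 26) and 455 valve mesenchyme-like cells in Zone II. Each pair of libraries shared 29 to 49 barcodes, and doublets were not removed.

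The members split by cell type into a pair led by endothelial-like cells, Cav1 and Cav2, and a muscle set of 4 (the plot of levels by cell class). The pair was not confined to vessels, since SAN-like and atrial working myocyte-like cells also held both genes, as given below. Endothelial-like cells, 9.00% of cells, held 61.8% of the 63158 Cav1 UMIs and 69.5% of the 6460 Cav2 UMIs. Working myocyte-like cells, 55.3% of cells, held 83.7% of the Cav3, 84.1% of the Bves, 83.8% of the Popdc2 and 85.3% of the Popdc3 UMIs. Below, the level of a gene in a class is its summed UMIs per 10000 UMIs of all genes. Ranges in parentheses after a level are exact Poisson 95% intervals, which cover counting error only, and levels are compared between cells and not between genes.

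**Figure D1:**
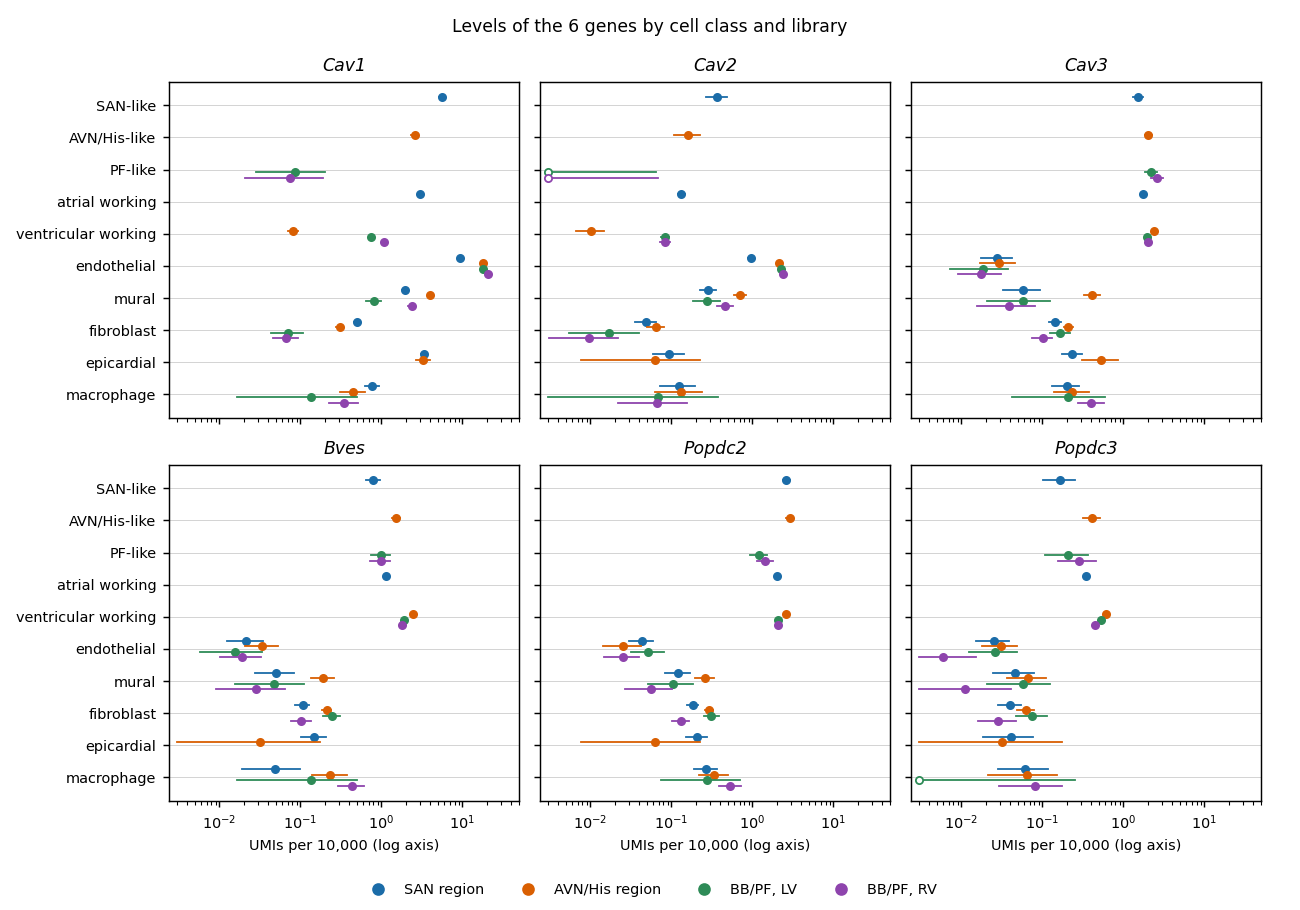
UMIs per 10000 (log axis) of each member in cell classes named by markers (each name to be read as X-like), 1 point per library in the color given, with exact Poisson 95% intervals; open points at the left edge are classes with no UMI. Cav1 and Cav2 were highest in endothelial-like cells in all 4 libraries, and the other 4 genes in the myocyte classes.

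Cav1 in endothelial-like cells stood at 9.40 (9.18 to 9.61), 18.1 (17.8 to 18.4), 17.8 (17.4 to 18.2) and 20.9 (20.5 to 21.2) UMIs per 10000. In working myocyte-like cells it stood at 3.0, 0.0815, 0.753 and 1.07, and the groups did not overlap. The log2 difference was 3.95 ± 0.84 (SE, adjusted p = 0.00032, edgeR's quasi-likelihood test on sums per library and class), higher in 4 of 4 libraries.

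Cav2 levels were 0.953, 2.13, 2.28 and 2.37 in endothelial-like and 0.133, 0.0102, 0.0833 and 0.0848 in working myocyte-like cells, again without overlap. The log2 difference was 4.43 ± 0.61 (adjusted p = 2.1e-06, 4 of 4 libraries). The SAN region had the lowest endothelial level of both genes.

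A UMI of Cav1 was found in 95.6% to 97.4% of endothelial-like cells, whose median depth was 8570 to 11210 UMIs. Macrophage-like cells, whose own expression and free RNA cannot be told apart here, had one in 17.8%, 14.1%, 4.55% and 6.67% of cells. Their median depths were 5768 to 7107 UMIs. For Cav2 the shares were 56.8% to 83.2% in endothelial-like and 4.55% to 8.24% in macrophage-like cells. Both genes were thus found in a larger share of endothelial-like than of macrophage-like cells, which were shallower.

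The muscle genes were close to absent from the same cells. Cav3 in endothelial-like cells stood at 0.0278, 0.0289, 0.0183 and 0.0177 UMIs per 10000. Bves levels there were 0.0157 to 0.0340, those of Popdc2 0.0251 to 0.0523 and those of Popdc3 0.00589 to 0.0306. The log2 differences from working myocyte-like cells were -6.71 ± 0.45 for Cav3, -6.57 ± 0.44 for Bves, -6.23 ± 0.40 for Popdc2 and -4.79 ± 0.32 for Popdc3 (adjusted p = 2.0e-11 to 4.0e-11). All 6 members thus passed the test in this contrast, where 61.9% of the 12999 genes tested did. The share of endothelial-like cells with a Cav3 UMI, 2.56% to 3.51%, lay below that of macrophage-like cells, 7.06% to 13.6%. Whether these UMIs are expression or free RNA was not tested.

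**Figure D2:**
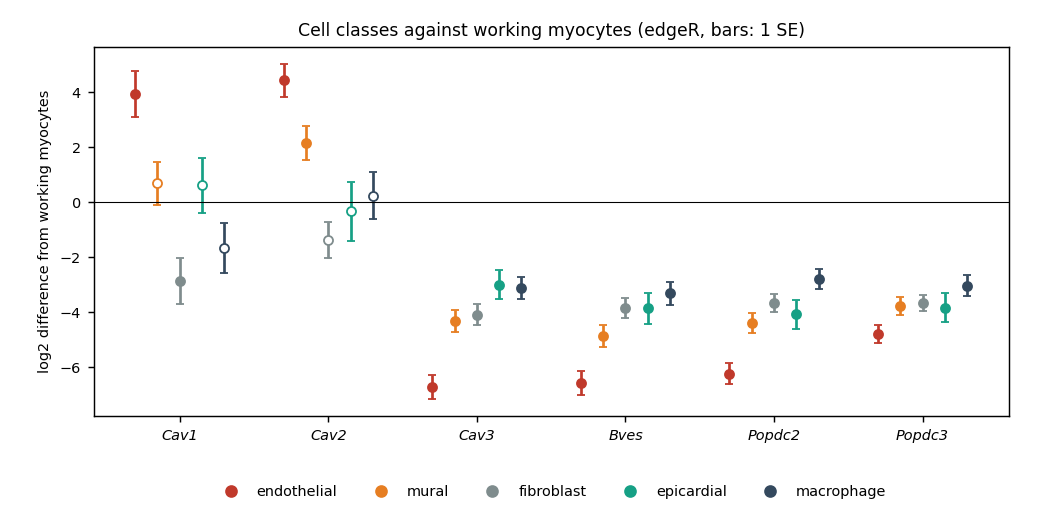
Log2 difference of each member between a cell class (each name to be read as X-like) and working myocytes, by edgeR, with bars of 1 SE; filled points have an adjusted p under 0.05. Cav3, Bves, Popdc2 and Popdc3 were lower in all 5 classes, while the differences of Cav1 and Cav2 had either sign.

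Within the endothelium, the caveolins were lower in the lining of the heart chambers than in coronary vessels. Cav1 was at 7.82, 5.27, 5.22 and 6.71 UMIs per 10000 in endocardial-like cells (396, 164, 43 and 109 cells) and at 11.4, 26.0, 20.03 and 24.9 in coronary capillary-like cells (226, 201, 81 and 196). The groups did not overlap, and the log2 difference was 1.83 ± 0.24 (adjusted p = 0.00040, higher in 4 of 4 libraries). Cav2 was at 0.808, 0.854, 1.48 and 1.06 in endocardial-like and at 1.05, 2.93, 2.55 and 2.58 in capillary-like cells, a log2 difference of 1.21 ± 0.21 (adjusted p = 0.0020, 4 of 4 libraries). Both caveolins were called, where 32.3% of 10058 genes were. In the SAN region, where the Cav1 gap was smallest, 56 of the capillary-like cells formed a cluster led by the lymphatic genes Ccl21a and Lyve1.

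Arterial-like cells (21 LV and 42 RV) had the highest caveolin levels of the classes. Cav1 reached 28.3 (26.4 to 30.3) and 33.5 (32.1 to 34.9) UMIs per 10000 and Cav2 3.42 (2.78 to 4.15) and 4.06 (3.58 to 4.58). Against endocardial-like cells the log2 differences were 2.27 ± 0.31 for Cav1 (adjusted p = 0.0011) and 1.63 ± 0.29 for Cav2 (adjusted p = 0.0044), where 10.8% of genes were called. Against capillary-like cells they were 0.45 ± 0.30 (adjusted p = 0.43) and 0.42 ± 0.28 (adjusted p = 0.42), so a difference between these vessels was not shown.

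**Figure D3:**
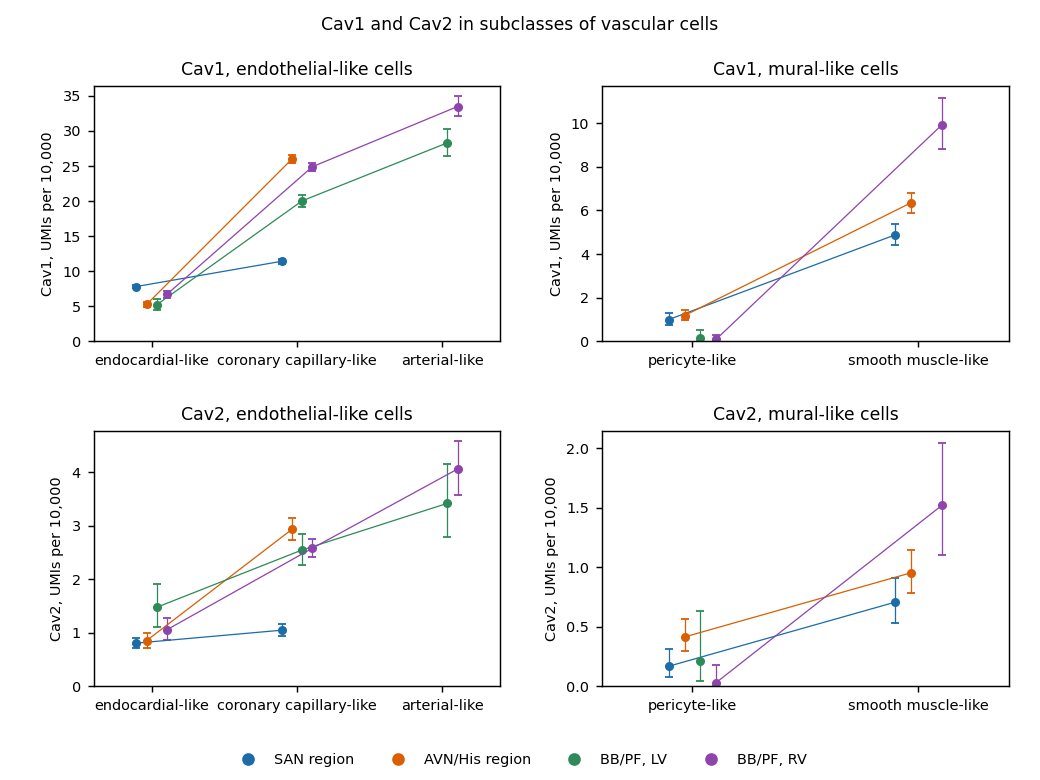
Levels of Cav1 and Cav2 (UMIs per 10000) in subclasses of endothelial-like and mural-like cells, 1 point per library with exact Poisson 95% intervals. Each library with both subclasses had more Cav1 in capillary-like than in endocardial-like cells and more in smooth muscle-like than in pericyte-like cells.

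In mural-like cells, which wrap vessels, Cav1 stood at 1.98, 3.98, 0.810 and 2.38 UMIs per 10000 and Cav2 at 0.284, 0.707, 0.276 and 0.461. Both were below the endothelial-like cells of every library, by log2 differences of -3.26 ± 0.82 (adjusted p = 0.0037) and -2.27 ± 0.58 (adjusted p = 0.0043). Cav3, Bves and Popdc2 were higher in mural-like than in endothelial-like cells, at levels of at most 0.413, so that 5 members were called, where 32.5% of genes were. Without the AVN/His library 3 members were called, a count given without the share of all genes called in that fit. The smooth muscle-like cells of that library held 0.734 UMIs of Cav3, 0.315 of Bves and 0.420 of Popdc2 per 10000, beside 19.9 of 8 cardiomyocyte markers, whose part in the result was not tested.

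The Cav1 levels of mural-like cells differed between their subclasses. Smooth muscle-like cells (107, 164 and 41 in the SAN, AVN/His and RV libraries) held 4.87, 6.34 and 9.93 UMIs of Cav1 per 10000, while pericyte-like cells (78, 137, 21 and 54) held 0.999, 1.18, 0.144 and 0.0961. The log2 difference was 3.21 ± 0.59 (adjusted p = 0.026, higher in 3 of 3 libraries), where 3.9% of 6737 genes were called. For Cav2, at 0.706, 0.953 and 1.52 against 0.169, 0.415, 0.216 and 0.0320, it was 2.12 ± 0.48 and missed the threshold (adjusted p = 0.052). With sums not paired by library the Cav1 call was lost (adjusted p = 0.067).

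Outside vessels, Cav1 was found in epicardial-like cells, the outer lining of the heart, at 3.33 and 3.24 UMIs per 10000, with a UMI in 87.3% and 88.5% of cells. Valve mesenchyme-like cells had a Cav1 level of 3.80 (3.58 to 4.02) that came from 26.2% of the cells. Their summed level of 8 endothelial markers was 6.39 UMIs per 10000, and its part in the Cav1 level was not tested. Fibroblast-like cells had Cav1 at 0.504, 0.307, 0.0712 and 0.0668, with the Zone I and II values above those of Zone III. A UMI was found in 5.78% to 17.2% of them, near the 4.55% to 17.8% of macrophage-like cells. Both shares were larger in Zones I and II than in Zone III, and the part of free RNA was not tested.

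Among working myocytes, Cav1 was highest on the atrial side. Atrial working myocyte-like cells of the SAN region held 3.0 (2.94 to 3.07) UMIs per 10000, with a UMI in 86.9% of cells. Ventricular ones of the AVN/His region held 0.0815 (0.0710 to 0.0932), with a UMI in 7.81%. The LV and RV levels of 0.753 and 1.07 came from few cells. Of the Cav1 UMIs in working myocyte-like cells, 94.7% in both libraries lay in 91 LV and 84 RV marked cells, which held UMIs of 3 or more endothelial markers (47 and 44 cells) or over 1% hemoglobin. For Cav2 the shares were 93.7% and 93.9%.

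Without the marked cells, Cav1 in working myocyte-like cells was 2.99, 0.0746, 0.0418 and 0.0588 UMIs per 10000 and Cav2 was 0.131, 0.0101, 0.00565 and 0.00560. The atrial library then held more of both than each ventricular one, a gap that was not tested because 1 library holds atrial cells. The muscle genes moved little, with Cav3 going from 1.77, 2.39, 1.96 and 1.99 to 1.80, 2.40, 2.06 and 2.13.

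Leaving out the marked myocytes changed which contrasts of Cav1 with working myocytes were called. For mural-like cells the log2 difference was 0.69 ± 0.78 over all cells (adjusted p = 0.47) and 2.73 ± 0.94 without them (adjusted p = 0.017). For fibroblast-like cells it was -2.87 ± 0.83 (adjusted p = 0.0053) and then -1.11 ± 0.91 (adjusted p = 0.30). The endothelial contrast kept its calls, at 6.16 ± 1.06 for Cav1 and 6.19 ± 0.78 for Cav2. This choice of cells was made after the values were seen.

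Cav3, the caveolin of striated muscle, had a mean level of 2.03 ± 0.262 UMIs per 10000 (SD, n = 4 libraries) in working myocyte-like cells. Popdc2 had a mean of 2.19 ± 0.278 there, from values of 2.01, 2.60, 2.10 and 2.05. Bves had a mean of 1.83 ± 0.534, from 1.14, 2.44, 1.91 and 1.81, with the atrial library below all ventricular ones. Popdc3 was at 0.344, 0.617, 0.528 and 0.454, again lowest in the atrial library.

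All 4 muscle genes were lower in each of the other tested classes than in working myocyte-like cells. The log2 differences were -3.78 to -4.86 for mural-like, -3.67 to -4.09 for fibroblast-like, -2.99 to -4.07 for epicardial-like and -2.78 to -3.31 for macrophage-like cells (largest adjusted p = 9.7e-05). Cav2 was higher in mural-like cells (2.16 ± 0.60, adjusted p = 0.0044, without the AVN/His library 0.056). With these calls and that of Cav1 in fibroblast-like cells, 5, 5, 4 and 4 members were called, where 55.6%, 59.8%, 41.3% and 53.3% of genes were. The summed level of 8 cardiomyocyte markers was 18.0 to 34.8 UMIs per 10000 in fibroblast-like and 28.3 to 59.1 in macrophage-like cells, and the part of myocyte RNA in the low levels of the muscle genes was not tested.

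Fibroblast-like cells differed from endothelial-like cells in all 6 members, where 41% of genes were called. Cav1 (-6.82 ± 0.97) and Cav2 (-5.81 ± 0.69) were lower on the log2 scale. Cav3 (2.63 ± 0.43), Bves (2.72 ± 0.42), Popdc2 (2.56 ± 0.38) and Popdc3 (1.12 ± 0.35) were higher, beside cardiomyocyte markers at 3.15 to 4.59 UMIs per 10000 in endothelial-like cells. When cells with UMIs of 3 or more markers of another class were left out, 3 members were called. That count is given without the share of all genes called in that fit.

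Among the conduction classes, Cav1 was higher in SAN-like and AVN/His-like than in PF-like cells. Atrial working myocyte-like cells likewise exceeded ventricular ones, and what part of the contrast follows the chamber was not tested. Cav1 was at 5.59 (5.19 to 6.02) UMIs per 10000 in SAN-like cells, at 2.57 (2.34 to 2.82) in AVN/His-like cells and at 0.0866 (0.0281 to 0.202) and 0.0754 (0.0206 to 0.193) in PF-like cells of the LV and RV. A UMI was found in 93.0%, 82.8%, 7.46% and 7.02% of these cells at median depths of 8418, 11000, 8315 and 9097 UMIs. The PF-like shares lay within counting error of the 4.55% and 6.67% of macrophage-like cells in the same libraries. Cav2 was at 0.365 (0.267 to 0.487) in SAN-like and 0.159 (0.107 to 0.229) in AVN/His-like cells. No Cav2 UMI was found in 67 and 57 PF-like cells, which allows levels of up to 0.0520 and 0.0566 per 10000 (3 counts).

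Set against working myocyte-like cells of the same library, both without marked cells, SAN-like cells held 1.91 (1.76 to 2.07) times the Cav1 level and 2.73 (1.93 to 3.77) times the Cav2 level. AVN/His-like cells held 34.3 (28.9 to 40.7) and 15.9 (9.05 to 28.2) times the levels. Their reference is ventricular and held little of either gene. A UMI of Cav1 was found in 7.52% and one of Cav2 in 1.07% of these unmarked working myocyte-like cells. Both shares lay below the 14.1% and 8.24% of macrophage-like cells in that library. The size of both AVN/His-like ratios thus rests on a low reference. The Cav1 level of 2.56 in AVN/His-like cells can be set beside the 2.99 of atrial working myocyte-like cells of the SAN region. PF-like cells had Cav1 ratios of 2.14 (0.684 to 5.11) and 1.28 (0.344 to 3.36), whose intervals include 1. These ratios compare cells of 1 library and have no test.

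**Figure D4:**
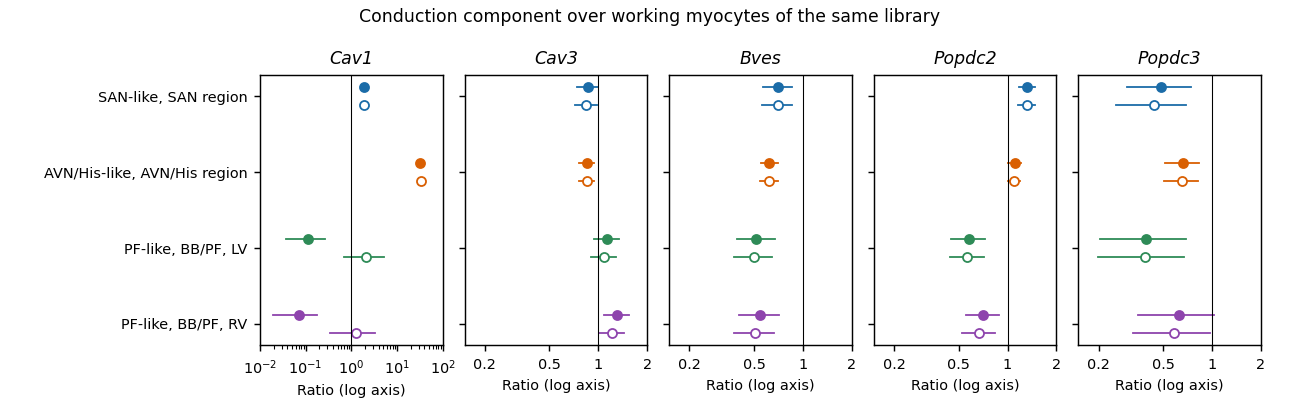
Ratio (log axis) of the level in a conduction component to that in working myocytes of its library, with 95% counting intervals and a line at 1; filled points use all cells and open points leave out cells with 3 or more endothelial markers or over 1% hemoglobin. Bves and Popdc3 lay below 1 in all 4 libraries, where the working myocytes are atrial for SAN-like cells and ventricular for the others, and Popdc2 lay above 1 in SAN-like and below 1 in PF-like cells.

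Bves was lower in conduction cells than in the working myocytes of the same library, which are atrial in the SAN region and ventricular in the others. Its level was 0.801, 1.52, 0.987 and 0.98 UMIs per 10000 in SAN-like, AVN/His-like and LV and RV PF-like cells and 1.14, 2.44, 1.91 and 1.81 in the working myocyte-like cells beside them. The log2 difference was -0.91 ± 0.14 (adjusted p = 0.026), lower in 4 of 4 libraries. Popdc3, at 0.167, 0.407, 0.208 and 0.283 against 0.344, 0.617, 0.528 and 0.454, gave -1.05 ± 0.18 (adjusted p = 0.033, lower in 4 of 4). These 2 of 6 members were called, where 3.83% of the 11876 genes tested were. Set beside the atrial working myocyte-like cells of the SAN region instead, AVN/His-like cells were at 1.52 (1.34 to 1.71) against 1.14 (1.10 to 1.18) for Bves and at 0.407 (0.319 to 0.511) against 0.344 (0.323 to 0.367) for Popdc3. Bves was thus above the atrial level, while the Popdc3 intervals overlap. That comparison spans 2 libraries and was not tested.

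Both calls depended on how cells and sums were chosen. They were lost without the LV library (adjusted p = 0.13 for Bves and 0.12 for Popdc3), without the RV library (adjusted p = 0.12 for Bves and 0.11 for Popdc3) and with at least 1000 genes and 2000 UMIs per cell (adjusted p = 0.12 for Bves and 0.12 for Popdc3). In the last setting the PF-like class held 254 cells. They were also lost with all variable genes in the clustering (adjusted p = 0.056 for Bves and 0.053 for Popdc3) and with no replicate block (adjusted p = 0.090 for Bves and 0.095 for Popdc3), while without TMM factors Bves stayed called and Popdc3 did not (adjusted p = 0.038 for Bves and 0.051 for Popdc3). In the fit of all classes together, where 16.6% of genes were called, the same 2 members were called, at -1.05 ± 0.33 (adjusted p = 0.035) for Bves and -1.2 ± 0.29 (adjusted p = 0.0066) for Popdc3. In its own fit the log2 differences stayed negative in all these settings, between -1.15 and -0.47.

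Popdc2 and Cav3 were not called in this contrast, at -0.32 ± 0.21 (adjusted p = 0.41) and -0.13 ± 0.16 (adjusted p = 0.68). Popdc2 was at 2.64 (2.37 to 2.94) in SAN-like cells and 2.88 (2.64 to 3.14) in AVN/His-like cells, above the working levels of 2.01 and 2.60. In PF-like cells it was at 1.21 (0.945 to 1.53) and 1.45 (1.15 to 1.81), below the working levels of 2.10 and 2.05. Cav3 went the other way. It was at 1.52 (1.32 to 1.75) in SAN-like and 2.03 (1.83 to 2.25) in AVN/His-like cells, below working myocytes. In PF-like cells it was at 2.20 (1.83 to 2.62) and 2.58 (2.17 to 3.05), above working myocytes. The AVN/His-like level of Cav3 lay above the 1.77 (1.72 to 1.82) of atrial working myocyte-like cells of the SAN region.

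Cav1 and Cav2 were not called either, at 0.06 ± 1.32 (adjusted p = 0.99) and 0.95 ± 0.94 (adjusted p = 0.60), each higher in 2 of 4 libraries. Without marked myocytes they were at 1.97 ± 0.77 (adjusted p = 0.17) and 2.04 ± 0.65 (adjusted p = 0.10).

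The Kcne1-led intermediate myocytes of Zone II had the highest levels of Cav3, 3.09 (2.86 to 3.34), and of Bves, 3.38 (3.14 to 3.64), among the classes, and no Cav2 UMI. Without marked cells these were 1.29 (1.19 to 1.40) and 1.38 (1.28 to 1.49) times the working levels of that library. AVN/His-like cells went the other way, at 0.848 times for Cav3 and 0.618 times for Bves. In the intermediate myocytes Popdc2 was at 0.889 (0.810 to 0.975) times and Popdc3 at 0.989 (0.819 to 1.18) times. These values come from 1 cluster in 1 library and have no test.

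Within the PF-like class, Bves and Popdc2 levels differed with a UMI of Gja5, the gene that the class needed to be named. Gja5 encodes connexin 40, the gap junction protein of fast conduction. In the 45 LV and 31 RV cells with a Gja5 UMI, Bves was at 0.693 (0.461 to 1.0) and 0.438 (0.233 to 0.749) UMIs per 10000. In the 22 and 26 cells without one it was at 1.67 (1.12 to 2.40) and 1.67 (1.19 to 2.28). Popdc2 was at 0.792 and 1.01 with and at 2.19 and 2.01 without a Gja5 UMI. The working myocyte-like cells of these libraries were at 1.91 and 1.81 for Bves and at 2.10 and 2.05 for Popdc2. PF-like cells without a Gja5 UMI were near those levels. Cav3 was at 2.08 and 2.56 with and at 2.48 and 2.61 without, and its intervals overlapped. Cells with a Gja5 UMI were deeper, with median depths of 8489 and 9405 UMIs against 7642 and 8558. The split was added after the class levels were seen and is given as values. Whether it separates Purkinje cells from working myocytes in the cluster was not tested.

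The same split by Tbx3, a transcription factor of nodal identity, showed no such drop in SAN-like or AVN/His-like cells. In AVN/His-like cells Bves was at 2.01 (1.68 to 2.38) in the 52 cells with a Tbx3 UMI and at 1.25 (1.05 to 1.47) in the 105 without. Popdc2 was at 2.92 and 2.86. In SAN-like cells Popdc2 was at 2.93 (2.56 to 3.35) in 76 cells with and at 2.22 (1.84 to 2.67) in 66 cells without, and Bves at 0.780 and 0.831 with overlapping intervals.

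**Figure D5:**
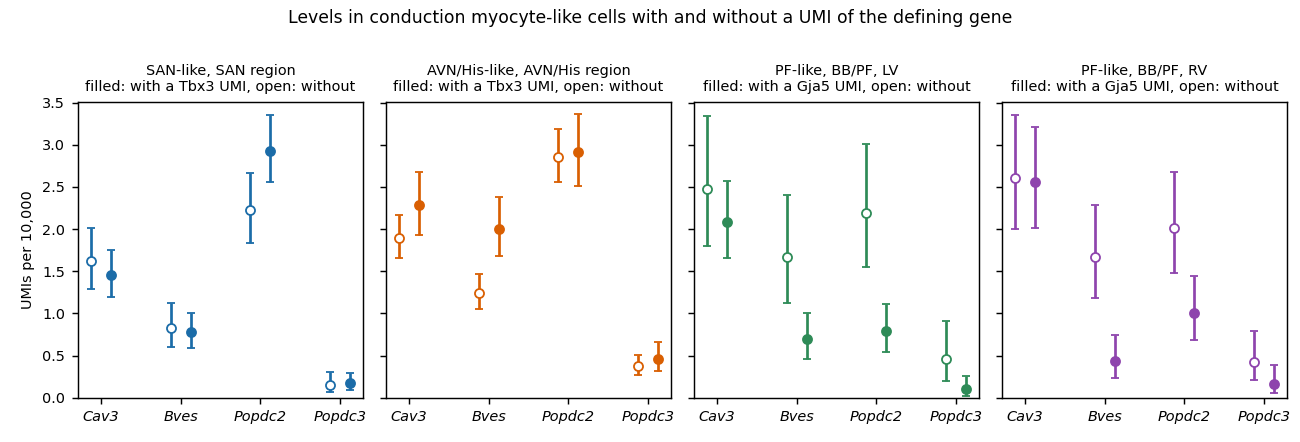
Levels (UMIs per 10000) of the 4 muscle genes in conduction myocyte-like cells with (filled) and without (open) a UMI of Tbx3 (SAN-like, AVN/His-like) or Gja5 (PF-like), with exact Poisson 95% intervals. Bves and Popdc2 were lower in PF-like cells with a Gja5 UMI in both ventricular libraries, where Cav3 intervals overlapped.

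Other genes of the caveola moved in both directions. Of 15 coat and scaffold genes, 14 could be tested across classes, and 8 were higher and 5 lower in endothelial-like than in working myocyte-like cells, where 61.9% of all genes were called. Their median log2 difference was 1.48 and that of all genes 0.03. Those higher with the lowest p were Plvap, which forms the diaphragm of endothelial caveolae (6.44 ± 0.23), Nos3, the endothelial nitric oxide synthase (4.39 ± 0.32), and the cavin Sdpr (2.44 ± 0.19). Those lower were led by the muscle cavin Murc (-6.12 ± 0.42), the flotillin Flot2 (-1.82 ± 0.14) and the muscle pacsin Pacsin3 (-3.57 ± 0.34).

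In the endocardial contrast, 12 coat and scaffold genes were tested, and 3 were higher and 1 lower in capillary-like cells, a share near the 32.3% of all genes called. The higher ones were Ptrf, the cavin that caveolae need (0.94 ± 0.11), Ehd2, which holds caveolae at the membrane (1.19 ± 0.15), and the cavin Prkcdbp (0.74 ± 0.14). Plvap was lower, at 0.220 UMIs per 10000 in capillary-like against 5.15 in endocardial-like cells (-4.57 ± 0.55). In arterial-like against endocardial-like cells 4 were higher, led by Prkcdbp (1.77 ± 0.19), Ehd2 (1.66 ± 0.20) and Ehd4 (1.89 ± 0.23), and Plvap was lower (-5.48 ± 1.0), where 10.8% of genes were called. Ehd4 (1.57 ± 0.22) and Prkcdbp (1.04 ± 0.18) were also higher in arterial-like than in capillary-like cells, a contrast in which 5.44% of genes were called. Between mural subclasses 1 of 11 was called, Ehd4, higher in smooth muscle-like cells (1.24 ± 0.25), where 3.9% of genes were called.

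In mural-like, fibroblast-like, epicardial-like and macrophage-like cells, 5, 3, 6 and 2 coat and scaffold genes were higher and 4, 6, 4 and 7 lower than in working myocyte-like cells, of 14 tested in each. Of all genes, 55.6%, 59.8%, 41.3% and 53.3% were called in these contrasts. Against endothelial-like cells 3 were higher and 7 lower in mural-like and 3 and 8 in fibroblast-like cells, where 32.5% and 41% of genes were called. Murc was lower than in working myocytes in all 5 classes, by log2 differences of -3.02 to -6.12. Between conduction and working myocytes 1 of 13 was called in the fit of these myocytes alone, where 3.83% of genes were called. It was Ehd3, an ATPase of membrane traffic, which was higher (2.93 ± 0.56, from 0.108 against 0.0116 UMIs per 10000). The fit of all classes called 5 of 14 in this contrast, where 16.6% of genes were called, with Ehd3 higher (2.73 ± 0.50) and 4 lower, Sdpr (-0.65 ± 0.19), Plvap (-2.86 ± 0.84), Flot2 (-0.45 ± 0.15) and Pacsin2 (-0.80 ± 0.21).

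Most muscle membrane genes linked to caveolin 3 were lower outside the myocytes. Of 13 tested, 11 were lower in endothelial-like cells, with a median log2 difference of -5.10 beside 0.03 for all genes, of which 61.9% were called. They included junctophilin Jph2 (-6.16 ± 0.34) and the sodium-calcium exchanger Slc8a1 (-6.09 ± 0.34). The 2 higher ones were Bin1, which shapes membrane tubules (4.22 ± 0.43), and the membrane repair gene Dysf (1.12 ± 0.26). In mural-like, fibroblast-like, epicardial-like and macrophage-like cells 10, 11, 9 and 12 were lower and 2, 2, 1 and 1 higher, Bin1 among the latter each time, where 55.6%, 59.8%, 41.3% and 53.3% of all genes were called. Against endothelial-like cells 8 were higher and 1 lower in mural-like and 7 and 1 in fibroblast-like cells, where 32.5% and 41% of genes were called. In capillary-like against endocardial-like cells 2 of 5 tested were higher and 3 lower, where 32.3% of genes were called. Between conduction and working myocytes, edgeR called 0 of 14 in the fit of these myocytes alone (2 at an unadjusted p under 0.05), where 3.83% of genes were called. The fit of all classes called 1 of 13, where 16.6% of genes were called.

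The Popeye partners and cyclic AMP effectors held to no common direction. Of 14 tested, where 61.9% of all genes were called, 5 were higher in endothelial-like cells, led by the tight junction gene Tjp1 (1.04 ± 0.16), the vesicle gene Vamp3 (0.94 ± 0.15) and Rapgef3, a cyclic AMP sensor (1.81 ± 0.29). The 6 lower ones were led by the Popeye partner Ndrg4 (-6.16 ± 0.19) and the protein kinase A subunits Prkaca (-1.76 ± 0.17) and Prkar2a (-1.08 ± 0.13). In mural-like, fibroblast-like, epicardial-like and macrophage-like cells 4, 3, 4 and 1 were higher and 5, 7, 5 and 6 lower, with Ndrg4 lower in each, beside the 55.6%, 59.8%, 41.3% and 53.3% of all genes called. Kcnk2, the potassium channel that Popeye proteins bind, was higher in fibroblast-like (7.10 ± 0.59, from 0.214 against 0.00102 UMIs per 10000) and mural-like cells (4.27 ± 0.75).

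Against endothelial-like cells 6 of these partners were higher and 2 lower in mural-like and 5 and 3 in fibroblast-like cells. Of all genes, 32.5% and 41% were called there. In capillary-like against endocardial-like cells 2 of 9 were higher and 2 lower, where 32.3% of genes were called. Prkacb, a catalytic subunit of protein kinase A, was lower in smooth muscle-like than in pericyte-like cells (-1.18 ± 0.22). It was 1 of 8 tested, where 3.9% of genes were called. Between conduction and working myocytes, edgeR called 0 of 13 in the fit of these myocytes alone (3 at an unadjusted p under 0.05), where 3.83% of genes were called. The fit of all classes called 1 of 14, Arhgef25, which was higher (1.40 ± 0.37), where 16.6% of genes were called.

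Over the 38 sums of a library and class, likeness was described by the Pearson correlation of log2(CPM + 10) among 6606 genes. Cav1 was most like Cav2 (0.92), Efnb2 (0.83) and Cd93 (0.82), and Cav2 most like Cav1 (0.92), Cd93 (0.90) and Efnb2 (0.89). Cav3 was most like Tnnt2 (0.97), Tnnc1 (0.96) and Dsp (0.96), and Bves most like Popdc2 (0.97), Actn2 (0.97) and Tnnc1 (0.96). Popdc2 was most like Tnnc1 (0.98), Tnni3 (0.97) and Actn2 (0.97), and Popdc3 most like Tceal7 (0.94), Ndufab1 (0.93) and Ndufs6 (0.93). The neighbors Popdc3 and Bves had a correlation of 0.92 with each other, and Cav1 with Cav3 one of -0.41. The points share libraries and the correlations carry no test.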

How the data were processed

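The 4 libraries hold single cells of heart regions, made with 10x Genomics 3′ chemistry. The authors made UMI counts with Cell Ranger against mm10 (versions not given in the sources used here), and the deposited counts are not normalized. Members and lists were chosen with earlier results of these data known. As in the study, a cell needed 500 to 60000 genes and 1000 to 5000000 UMIs, and all 1770 removed barcodes had under 500 genes. Kept UMIs per library were 44861830 to 55795938.

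Each zone was clustered with scanpy 1.11.5 and leidenalg 0.10.2 (2000 variable genes without the 49 members and list genes, 10 principal components, 30 neighbors, resolutions 1.2, 1.6 and 0.8). Clusters were named when at least 3 markers, and 50%, reached an average log change of 0.25 and were detected in 10% of the cluster's cells, against all other cells or, for myocytes, against the cells given non-myocyte names (erythroid aside). A cluster with more markers of another class among its 10 leading genes stayed unnamed. This rule was adjusted after clusters were seen, and a conduction component also needed a marker among its 15 leading genes. It further needed its defining gene at the same limits against the other myocyte clusters. That gene was Tbx3 for SAN-like and AVN/His-like cells and Gja5 for PF-like cells. Myocyte clusters that passed the component markers but failed either need were called intermediate. Sums of at least 20 cells were tested with edgeR 4.0.16 in R 4.3.3 (TMM, filterByExpr, quasi-likelihood test, library as a block, Benjamini-Hochberg adjustment over all genes tested, threshold 0.05). The block pairs the sums of a library, but not every library gave every class. Epicardial-like and arterial-like contrasts rest on 2 libraries and the smooth muscle-like contrast on 3. The p-values measure the spread between libraries, which may be technical. Each library is of another region and the conduction component changes with it, so these sources of spread cannot be told apart. Tested on simulated data, the fit of conduction against working myocytes (11876 genes) recovered 74% of 4-fold and 24% of 2-fold changes.

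Named genes are the members, up to 3 called genes per list and direction with the lowest p, and the 3 genes most like each member, of which 2 list genes are not reported here. Alternatives were DESeq2 1.42.0, no filter on low counts, no block, no TMM factors, each library left out, Scrublet doublets (score 0.2, 187, 151, 145 and 80 cells) left out, stricter cell limits, all variable genes, 1 clustering of all libraries, 1.5 times the resolution, cells thinned to 1500 UMIs, and cells with markers of other classes left out. Neural, erythroid, intermediate, valve and unnamed classes entered no test, and lymphatic and unnamed subclusters entered only the sums of their class. Promoters are from RefSeq.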

Additional observations from a re-analysis of the deposited data

Results flagged for a closer look

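Conduction components differed in direction for Cav3 and Popdc2, each set against the working myocyte-like cells of its own library without marked cells. The difference between components was not tested, since each region has 1 library. For Popdc2, the ratio was 1.31 (1.17 to 1.47) in SAN-like and 1.10 (1.0 to 1.2) in AVN/His-like cells, and 0.565 (0.440 to 0.714) and 0.665 (0.524 to 0.833) in PF-like cells of the LV and RV. For Cav3, it was 0.841 (0.720 to 0.977) in SAN-like and 0.848 (0.762 to 0.942) in AVN/His-like cells. In PF-like cells it was 1.08 (0.900 to 1.29) and 1.21 (1.02 to 1.44), the LV interval including 1. The reference of the AVN/His-like cells is ventricular.

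The 1770 barcodes under 500 genes, which entered no comparison, held UMIs of all 6 members above the 0.00278 per 10000 that 3 counts give over the 4 libraries. The levels were 0.0732 UMIs per 10000 for Cav1, 0.00741 for Cav2, 0.0241 for Cav3, 0.0148 for Bves, 0.0269 for Popdc2 and 0.0130 for Popdc3. Hemoglobin made up 71.5% to 92.1% of the UMIs of these barcodes.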

How the results depend on the processing

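All 6 members stayed called in endothelial-like against working myocyte-like cells in each fit run. Of single log2 differences under the alternatives, 824 kept direction and side of the threshold, 43 lost a call, 14 gained one and 19 changed sign and passed the threshold in none of those alternatives. Conduction against working myocytes had 2 calls in its own fit, 0 with no replicate block, 1 without TMM factors, 0 to 2 with a library left out, 0 with stricter cell limits and 0 with all variable genes. In the fit of all classes it had 2 (where 16.6% of genes were called), 1 with DESeq2, 1 with no replicate block, 1 without TMM, 0 to 2 with a library left out, 1 without doublets, 0 with stricter limits and 1 with all variable genes. Smooth muscle-like against pericyte-like cells had 1, 2 with DESeq2, 5 with no filter, 0 with no block, 0 without TMM, 1 to 2 with a library left out, 0 with stricter limits, 2 with all variable genes and 2 with 1 clustering. Leaving out cells with markers of another class left 2 of 5 calls in mural-like and 3 of 6 in fibroblast-like against endothelial-like cells, and leaving out a library 3 to 5 in the former. Dropping the block moved no other count of calls. In the main fits 3.83% of genes were called for conduction against working myocytes alone and 3.9% for smooth muscle-like against pericyte-like cells. Shares of all genes called under the alternatives are not given here. A change in the members thus cannot be told apart from one in the calling of all genes. The cause of these changes was not tested.

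Sign changes in conduction against working myocytes were, in its own fit, Cav1 at -0.79 (DESeq2), -0.0035 (no filter), -0.18 (stricter limits) and -1.42 to 1.08 (a library left out), Cav2 at -1.0 (DESeq2) and -0.12 to 1.54 (a library left out), and Cav3 at 0.021 (no TMM). In the fit of all classes they were Cav1 at -0.029 (DESeq2), -0.11 (higher resolution) and -0.61 to 0.76 (a library left out), and Cav3 at 0.038 (no TMM). Against working myocytes, Cav2 changed sign in fibroblast-like (0.017) and epicardial-like cells (0.62) and Cav1 in macrophage-like cells (0.063) without marked myocytes, Cav2 in epicardial-like cells with 1 clustering (0.30) and in macrophage-like cells with a library left out (-0.23 to 0.62). Popdc3 in fibroblast-like against endothelial-like cells did so without cells holding markers of another class (-0.076).

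With all libraries clustered together no conduction cluster was named, and those contrasts have no value there, as have arterial-like contrasts without the LV or RV library, at the higher resolution or with all variable genes. Epicardial-like cells were not tested without the SAN or AVN/His library or without cells holding markers of another class. PF-like classes of 67 and 57 cells, and 3 residual degrees of freedom, limit the conduction contrast.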

Other observations

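The unnamed cells, which entered no comparison, held UMIs of both the endothelial-led pair and the muscle set. Cav1 was at 4.98, 8.11, 1.83 and 2.23 UMIs per 10000 in them and Cav3 at 0.918, 0.740, 1.97 and 2.12. The endothelial markers stood at 8.18, 13.4, 3.88 and 4.03 and the cardiomyocyte markers at 184, 102, 334 and 346 UMIs per 10000.

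The 160 erythroid-like cells of Zone II, led by hemoglobin genes, held Cav3 at 1.06, Bves at 1.61 and Popdc2 at 1.78 UMIs per 10000, with cardiomyocyte markers at 169. The 64 neuron-like and Schwann-like cells of the SAN region held Cav1 at 0.355 (0.207 to 0.569) and Cav3 at 0 (0 to 0.0771).

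Without marked cells, the clusters of working myocyte-like cells of Zone III had Bves levels of 0.876 to 2.28 UMIs per 10000. Cav3 there ranged from 1.5 in a cluster led by Top2a, a gene of dividing cells, to 2.48 in a cluster led by Mb and Fabp3. In Zone I a cluster led by Cks2, also a gene of dividing cells, had the lowest Cav3 level, 1.17, and the highest Bves level, 1.32.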
